A study of Caenorhabditis elegans with 12 samples.

Results

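Argonaute proteins carry small RNAs to the transcripts they act on, and 10 genes for them, active in the germline or the soma of *Caenorhabditis elegans*, are described here: *prg-1*, *csr-1*, *hrde-1*, *wago-1*, *alg-1*, *alg-2*, *alg-3*, *alg-4*, *ergo-1* and *rde-1*. They were taken by gene name from a table of 46926 features, each name matched 1 feature, and all 10 passed the filter on low counts. RNA came from whole worms of the wild-type strain N2 on 2 diets. The worms of 6 libraries, called Δ*lpp* here, were fed an *E. coli* mutant that lacks *lpp*, the gene of the major outer membrane lipoprotein, and those of the other 6 libraries, called BW25113, were fed the strain of that name. The labels name no other difference between the groups, and how old the worms were when RNA was taken was not stated. The question was whether the level of each Argonaute gene differed between worms on the 2 diets.

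An Argonaute protein holds a short RNA that guides it, by base pairing, to matching transcripts, which are then silenced or, for some Argonautes, protected. The worm has an unusually large family. PRG-1 is the Piwi protein that binds piRNAs and patrols the germline for foreign sequence. WAGO-1 and HRDE-1 act after it, with small RNAs made by RNA-dependent RNA polymerases, WAGO-1 in the cytoplasm and P granules and HRDE-1 in the nucleus, where it is needed for silencing that is inherited. CSR-1 binds small RNAs against genes that the germline expresses and is known for protecting them. ALG-3 and ALG-4 serve spermatogenesis, ERGO-1 serves the oocyte and embryo, RDE-1 receives small RNAs cut from foreign double-stranded RNA, and ALG-1 and ALG-2 are the main microRNA Argonautes, known above all from somatic development.

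Total estimated counts were 21146884 to 23563531 per library on Δ*lpp* and 20254430 to 24442423 on BW25113, so depth was alike. Ranges over libraries and SDs below are over 6 libraries a group. Levels are given as TPM, the authors' values per gene length, which allow different genes to be compared, or as CPM, counts scaled to a common library size by TMM, on which the diets were compared. TMM assumes that most genes do not differ. With library size alone in its place, the median over all 15266 tested genes went from 0.05 to 0.50 in log2 fold change, so changes well under 1 on this scale depend on the scaling. A gene was called where edgeR's quasi-likelihood test gave an adjusted p (Benjamini-Hochberg over all tested genes) under 0.05 and the log2 fold change of Δ*lpp* over BW25113 was over 1 in either direction, and "rose" and "fell" are used for called genes. At these depths 3 counts correspond to 0.111 to 0.185 CPM. In whole worms, fewer cells of a type and less RNA per cell cannot be told apart.

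On BW25113 *wago-1* had the highest level per length of the 10 genes, at 122 to 191 TPM with a median of 130. It was followed by *hrde-1* (median 80 TPM), *prg-1* (76.8), *csr-1* (63.4) and *ergo-1* (42.7). The ranges of *wago-1* and *hrde-1* did not overlap, while each of the next 3 neighbours in this order overlapped. The microRNA Argonautes lay lower, *alg-2* at a median of 16.1 TPM and *alg-1* at 9.25, with ranges apart. The spermatogenesis pair came next, *alg-4* at 8.36 TPM and *alg-3* at 6.24, and *rde-1* was lowest at 3.22. The ranges of *alg-1* and *alg-4* overlapped, as did those of *alg-3* and *rde-1*.

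On Δ*lpp* the order kept *wago-1* first, at 201 to 250 TPM with a median of 208. Then came *hrde-1* (median 99.1 TPM), *prg-1* (86.3) and *ergo-1* (85.4), whose neighbouring ranges overlapped. Below them stood *csr-1* (60.2), *alg-2* (26.04), *alg-1* (16.8) and *rde-1* (8.0), each with a range apart from its neighbours. At the bottom were *alg-3* (0.245) and *alg-4* (0.18), which overlapped each other. The order changed in places: by TPM *ergo-1* stood below *csr-1* in every BW25113 library and above it in every Δ*lpp* library, and the spermatogenesis pair stood above *rde-1* in the BW25113 medians and below it in the Δ*lpp* medians.

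**Figure D1:**
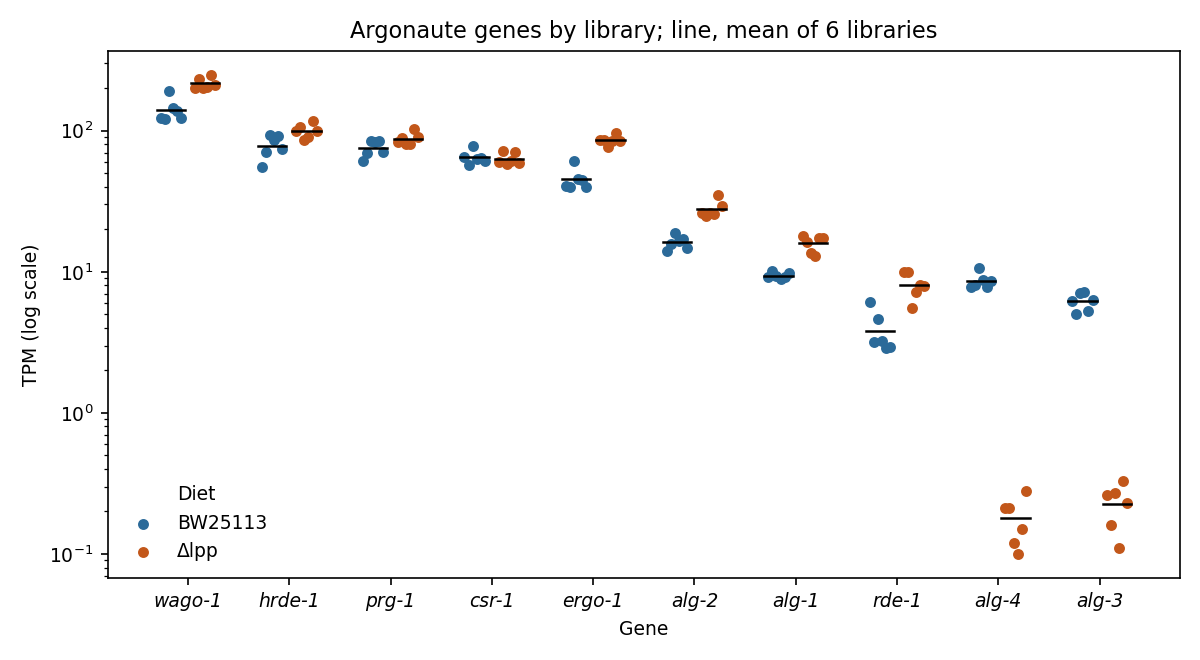
TPM of the 10 Argonaute genes in each library on a log axis, BW25113 in blue and Δlpp in orange, with a black line at the mean of 6 libraries. The 2 spermatogenesis genes alg-4 and alg-3 lie between 5.05 and 10.71 TPM on BW25113 and between 0.1 and 0.33 on Δlpp, while each of the other genes stays within a few-fold.

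Of the 10 genes, *alg-3* and *alg-4* fell on Δ*lpp* and 0 rose. Among all tested genes 15.6% were called lower and 12.1% higher, 27.7% in all, so 2 of 10 is not a high share. The size of the change set the pair apart from the other 8 members, whose log2 fold changes lay between -0.67 and 0.47. By adjusted p alone, 4 were lower (*alg-3*, *alg-4*, *csr-1* and *prg-1*) and 2 higher (*ergo-1* and *rde-1*), against 32.3% and 32.9% of all tested genes, 65.2% together. The counts at an unadjusted p under 0.05 were the same 4 and 2, and DESeq2 also called 0 higher and 2 lower. At an unadjusted p under 0.05 the share of all tested genes is at least that 65.2%, here and for the lists below. On log2(TPM + 0.1), limma called 1 higher, *rde-1*. The CPM ranges of the groups did not overlap for 3 members (*csr-1*, *alg-3* and *alg-4*), against 41.5% of all tested genes. The median log2 fold change of the 10 was -0.13, against 0.05 over all tested genes.

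*alg-3* (WBGene00011910, chromosome IV, 11704246 to 11708264, plus strand of WBcel235) and *alg-4* (WBGene00006449, chromosome III, 9887209 to 9891424, minus strand) encode closely related Argonautes that bind small RNAs in the male germline and are needed for full fertility of sperm. The estimated counts of *alg-3* were 504 to 689 in the BW25113 libraries, with a median of 600.5, and 10 to 29 in the Δ*lpp* libraries, with a median of 20.5. In CPM these were 26.8 to 39.6 and 0.371 to 1.14. All BW25113 libraries were high and all Δ*lpp* libraries low, with no overlap. By edgeR *alg-3* stood at a log2 fold change of -5.38 (standard error 0.204, adjusted p = 1.1e-13), which is 41.6-fold lower.

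For *alg-4* the counts were 772 to 1011 in the BW25113 libraries, with a median of 802, and 9 to 24 in the Δ*lpp* libraries, with a median of 15. In CPM the ranges were 35.6 to 52.7 and 0.334 to 0.969, again without overlap. By edgeR *alg-4* stood at a log2 fold change of -6.21 (standard error 0.182, adjusted p = 7.18e-15), or 73.9-fold lower, and 0.642% of all tested genes had a lower value. Both genes stayed above the 3 counts taken as the limit of detection in every library. Leaving out each library in turn kept *alg-3* between -5.53 and -5.23 and *alg-4* between -6.39 and -6.08. All alternative settings that could test them kept both calls, with the smallest changes on log2(TPM + 1), at -2.54 and -3.03, a scale that understates changes of low genes.

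The proportion of the pair to each other could be less well measured on Δ*lpp*. The TPM of *alg-3* was 0.623 to 0.814 of that of *alg-4* in the BW25113 libraries and 0.762 to 2.25 in the Δ*lpp* libraries, and the ranges overlapped. The ratio on Δ*lpp* rests on 9 to 29 counts a gene. No other annotated gene overlaps either of them. They are similar to each other in sequence, so the authors' counting could have split some fragments between them, although every count of both was a whole number.

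Genes of sperm were compared in the same libraries. Of 21 listed sperm marker genes 17 were tested, and 15 fell and 0 rose, against 15.6% and 12.1% of all tested genes. At an unadjusted p under 0.05, 16 were lower and 0 higher, and DESeq2 made the same calls. The median log2 fold change was -4.12, or -3.69 with the 3 genes at or under 3 counts in every Δ*lpp* library set at the smallest change that this limit allows. The summed level of the list was 53.5 to 80.0 CPM on Δ*lpp* and 170 to 266 CPM on BW25113, with no overlap, and no listed marker was at 0 in every library of either group. The called gene that fell least was *spe-6*, a kinase gene of sperm development, at -1.06 (standard error 0.169), with 1.82 to 2.58 CPM against 3.5 to 6.16. The markers not called were *spe-44*, the transcription factor gene of early spermatogenesis, at -0.49, and *cpb-1* at -0.21, a translational regulator. They averaged 11.98 and 42.37 CPM on Δ*lpp*, most of the summed level there, and 16.85 and 48.92 on BW25113. The sum therefore understates the fall of the called markers.

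The spermatogenesis Argonautes were also set against genes of sperm within each library. *gsp-3* and *gsp-4*, chosen after their values were seen, encode near-identical sperm phosphatases between which reads could have been split, so they were summed. They stood at log2 fold changes of -5.93 and -5.70, both below the list median of -4.12, and the tested sperm markers ran from -6.66 to -0.21. Ratios to the other sperm markers were not taken. *alg-3* had 0.192 to 0.744 of the summed CPM of *gsp-3* and *gsp-4* on Δ*lpp* and 0.247 to 0.390 on BW25113, and *alg-4* had 0.173 to 0.567 and 0.368 to 0.488. Both pairs of ranges overlapped, although the summed sperm genes and the Argonautes were each lower in every Δ*lpp* library. On Δ*lpp* the ratios are poorly measured, with 10 to 29 counts of *alg-3*, 9 to 24 of *alg-4* and 7 to 36 of *gsp-3*. Overlap there does not show that the proportion was kept. The part of the amount of sperm or spermatogenic cells in the change of *alg-3* and *alg-4* was not tested.

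The genes most like each Argonaute over the 12 libraries were found by the root mean square difference of log2 CPM, centred on each gene's mean, among genes that averaged 1 CPM or more. Nearest to *alg-3* were *K03H1.12* (difference 0.259) and *ZK354.2* (0.277), with log2 fold changes of -6.26 and -5.81. *K03H1.12* averaged 0.052 CPM on Δ*lpp*, under the level of 3 counts, and 4.36 on BW25113. Its fold change and its nearness to *alg-3* are therefore poorly measured. Nearest to *alg-4* were *F32B5.1* (0.273) and *ZK1010.5* (0.277), at -5.92 and -6.31. On log2(TPM + 1) 0 of these 4 were among the nearest 2. Between *alg-3* and *alg-4* the difference was 0.556. The Argonaute gene *wago-10* was closer to each of them, at 0.469 to *alg-3* and 0.404 to *alg-4*.

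The germline silencing Argonautes differed by much less. *csr-1* (WBGene00017641, chromosome IV, 7957267 to 7962157, plus strand) had 197 to 250 CPM in the Δ*lpp* libraries, with a median of 220, and 305 to 411 in the BW25113 libraries, with a median of 346. Every Δ*lpp* library was below every BW25113 library. By edgeR *csr-1* stood at a log2 fold change of -0.67 (standard error 0.0907, adjusted p = 4.04e-06), short of the limit for a call, or -0.72 once the median over all tested genes is taken off. It depended on the scaling. Scaled by library size alone it was -0.21 (edgeR adjusted p = 0.00677), and limma put it at -0.03 on log2(TPM + 1) (adjusted p = 0.715), where the groups overlapped at 57.8 to 71.4 TPM and 57.6 to 78.5 TPM. *csr-1* has 3 annotated transcripts, of which a longer form is known for the male germline, and the table does not separate them.

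*prg-1* (WBGene00004178, chromosome I, 7585329 to 7588367, minus strand) had 214 to 287 CPM on Δ*lpp*, with a median of 234.5, and 225 to 371 on BW25113, with a median of 320. The groups overlapped, with 3 Δ*lpp* libraries below every BW25113 library. By edgeR *prg-1* stood at a log2 fold change of -0.40 (standard error 0.117, adjusted p = 0.00603). But the value was 0.06 by library size alone and 0.22 on each TPM scale (limma adjusted p = 0.0399 and 0.0404). Once the median over all tested genes under each setting is taken off, it lay between -0.53 and -0.29 in the main setting and 9 alternatives. A gene on the opposite strand, *D2030.12*, overlaps *prg-1* and had up to 663 counts in a library, and whether the counting used strand was not stated.

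*hrde-1* (WBGene00007624, chromosome III, 4172337 to 4176159, minus strand) had 351 to 465 CPM on Δ*lpp*, with a median of 378, and 288 to 575 on BW25113, with a median of 487. The groups overlapped, and BW25113 replicate 1 was the lowest of all 12 libraries. By edgeR *hrde-1* stood at a log2 fold change of -0.27 (standard error 0.135, adjusted p = 0.0833). The value was 0.19 by library size alone and 0.36 on each TPM scale (limma adjusted p = 0.0119 and 0.0124). Taken relative to the median in the same way it lay between -0.41 and -0.15. Leaving out BW25113 replicate 1 gave -0.35 (edgeR adjusted p = 0.00164) and leaving out Δ*lpp* replicate 5 gave -0.34 (0.0428), the only ones of 12 such settings with an adjusted p under 0.05. Without BW25113 replicate 5 it was -0.18 (edgeR adjusted p = 0.244).

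*wago-1* (WBGene00011061, chromosome I, 7235384 to 7238792, plus strand) had 597 to 804 CPM on Δ*lpp*, with a median of 676, and 523 to 906 on BW25113, with a median of 654. The ranges overlapped almost wholly, and the log2 fold change of 0.02 in edgeR (standard error 0.122, adjusted p = 0.914) was within the spread between libraries. It was -0.01 with the RLE factors, 0.47 by library size alone (edgeR adjusted p = 0.000183) and 0.64 on each TPM scale. In TPM the groups did not overlap, at 201 to 250 on Δ*lpp* and 122 to 191 on BW25113.

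Because scaling moves all 4 together, ratios within a library show them without it. The TPM of *csr-1* was 0.279 to 0.306 of that of *wago-1* in the Δ*lpp* libraries and 0.411 to 0.527 in the BW25113 libraries. That of *prg-1* was 0.381 to 0.429 and 0.444 to 0.608 of *wago-1*. In both ratios the diets did not overlap, with the Δ*lpp* libraries lower. *hrde-1* relative to *wago-1* overlapped, at 0.428 to 0.495 and 0.451 to 0.664, as did *prg-1* relative to *hrde-1*, at 0.836 to 0.930 and 0.914 to 1.11. *csr-1* relative to *hrde-1* did not overlap, at 0.596 to 0.672 and 0.695 to 1.17.

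A list of 16 germline marker genes, all tested, were summed for comparison. Of these 1 fell and 0 rose, with 6 lower and 3 higher at an unadjusted p under 0.05 and the same calls from DESeq2, and their median log2 fold change was -0.04. The gene that fell was *glh-1*, the P granule helicase, at 179 to 243 CPM against 518 to 642 (log2 fold change -1.51, standard error 0.0911). The summed level of the list was 1925 to 2492 CPM on Δ*lpp* and 2131 to 3249 on BW25113, and overlapped. On both TPM scales 2 markers rose and 0 fell. Relative to this sum, *prg-1* had 0.110 to 0.117 on Δ*lpp* and 0.106 to 0.123 on BW25113, and *hrde-1* 0.180 to 0.191 and 0.135 to 0.192, both with overlap. *csr-1* was lower relative to it, at 0.0973 to 0.114 against 0.119 to 0.143, and *wago-1* higher, at 0.306 to 0.344 against 0.228 to 0.279, both without overlap. *glh-1* carried much of the difference in the sum, which without it was 1727 to 2249 CPM on Δ*lpp* and 1613 to 2641 on BW25113. Over that sum, added after the values were seen, *csr-1* had 0.108 to 0.126 against 0.150 to 0.189, still without overlap, while *wago-1* had 0.337 to 0.383 against 0.294 to 0.343 and overlapped. *prg-1* and *hrde-1* overlapped over either sum.

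**Figure D2:**
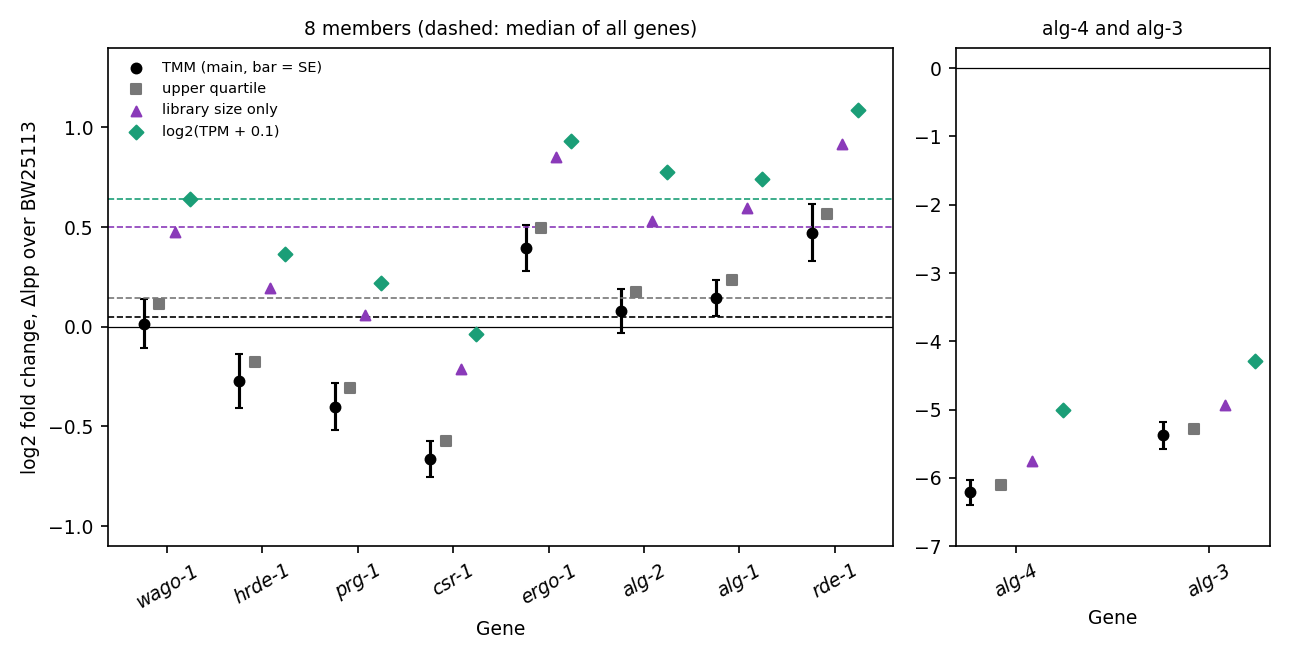
log2 fold change of Δlpp over BW25113 for each Argonaute gene under 4 scalings, with standard errors for TMM and dashed lines at the median of all tested genes under each scaling. The markers of 8 genes move up together with the dashed lines, from 0.05 under TMM to 0.64 on log2(TPM + 0.1), and alg-4 and alg-3 in the right panel (its own axis) stay below -4 under these scalings.

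*ergo-1* (WBGene00019971, chromosome V, 1008803 to 1018352, plus strand) encodes the Argonaute of small RNAs in the oocyte and embryo. It had 220 to 278 CPM in the Δ*lpp* libraries, with a median of 226, and 141 to 238 in the BW25113 libraries, with a median of 172. BW25113 replicate 3 was the one that reached into the Δ*lpp* range in CPM. By edgeR *ergo-1* stood at a log2 fold change of 0.40 (standard error 0.115, adjusted p = 0.00573), short of the limit for a call. It was 0.85 with library size alone and 0.93 on log2(TPM + 0.1), and it was positive under each setting tried. In TPM the groups did not overlap, at 77.3 to 95.9 and 39.8 to 60.7.

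*ergo-1* and *csr-1* also changed places within libraries. The TPM of *csr-1* was 0.691 to 0.831 of that of *ergo-1* in the Δ*lpp* libraries and 1.29 to 1.58 in the BW25113 libraries, with the diets far apart. These ratios rest on the lengths behind the authors' TPM. By count *csr-1* exceeded *ergo-1* in every BW25113 library and was below it in 5 of the 6 Δ*lpp* libraries, with 6056 and 5920 counts in Δ*lpp* replicate 2. Genes of oocytes were compared beside *ergo-1*. Of 14 oocyte and eggshell marker genes 1 rose and 0 fell, against 12.1% and 15.6% of all tested genes. The gene that rose was *perm-4*, a gene of the eggshell's permeability barrier, at 1.07. DESeq2 made the same calls, and at an unadjusted p under 0.05, 7 of the markers were higher and 0 lower. Their median log2 fold change was 0.32, and 0.78 with library size alone, where 4 rose. The number that rose was 2 with Δ*lpp* replicate 1 or 2 or BW25113 replicate 3, 4 or 5 left out. The summed level of this list was 7094 to 9732 CPM on Δ*lpp* and 3722 to 7471 on BW25113, with overlap. *ergo-1* had 0.0282 to 0.0313 of this sum on Δ*lpp* and 0.0268 to 0.0378 on BW25113, which overlapped. For *csr-1* the same ratio was 0.0257 to 0.0316 and 0.0523 to 0.0818, without overlap. The part of the amount of oocyte RNA in these differences was not tested.

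*rde-1* (WBGene00004323, chromosome V, 9987916 to 9991642, minus strand) is the Argonaute that starts RNA interference from foreign double-stranded RNA. It had 38.1 to 55.9 CPM on Δ*lpp*, with a median of 49.2, and 26.8 to 49.3 on BW25113, with a median of 31.3. The groups overlapped, with BW25113 replicates 1 and 3 within the Δ*lpp* range. By edgeR *rde-1* stood at a log2 fold change of 0.47 (standard error 0.142, adjusted p = 0.007), with 0.92 by library size alone and 1.09 on log2(TPM + 0.1) (limma adjusted p = 0.000199). Without BW25113 replicate 1 it was 0.63 (edgeR adjusted p = 0.000167). The counts of *rde-1* were not whole in 11 of 12 libraries, as were those of *wago-1* in all 12, and the cause was not tested.

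The microRNA Argonautes did not differ beyond the spread between libraries under TMM. *alg-1* (WBGene00000105, chromosome X, 13949110 to 13956261, plus strand) had 66.9 to 91.3 CPM on Δ*lpp*, with a median of 83, and 63.5 to 81.5 on BW25113, with a median of 75.3. By edgeR *alg-1* stood at a log2 fold change of 0.14 (standard error 0.0893, adjusted p = 0.164). *alg-2* (WBGene00000106, chromosome II, 873212 to 879885, plus strand) had 87.1 to 134 CPM on Δ*lpp*, with a median of 107, and 80.7 to 115 on BW25113, with a median of 106. By edgeR *alg-2* stood at a log2 fold change of 0.08 (standard error 0.111, adjusted p = 0.537). With library size alone both were higher, at 0.60 and 0.53, and on log2(TPM + 0.1) at 0.74 and 0.78, which is 0.10 and 0.14 above the median of all tested genes on that scale.

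The balance between *alg-1* and *alg-2* overlapped between the diets, at a TPM ratio of 0.497 to 0.682 in the Δ*lpp* libraries and 0.500 to 0.664 in the BW25113 libraries. Against the germline gene *csr-1* both were higher on Δ*lpp*, but *csr-1* itself stood at a log2 fold change of -0.67 under TMM. A ratio does not tell which of its genes moved. *alg-1* had 0.211 to 0.299 of its TPM on Δ*lpp* and 0.120 to 0.176 on BW25113, and *alg-2* 0.347 to 0.500 and 0.218 to 0.273, neither with overlap. Somatic markers did not move in one direction. Of 7 intestine markers 3 fell and 0 rose, with a summed level of 1188 to 1500 CPM on Δ*lpp* and 2854 to 3479 on BW25113. Of 7 muscle and pharynx markers 4 fell and 0 rose, at 3425 to 4324 CPM against 7701 to 11880. Of 9 neuron markers 2 rose and 0 fell, at 677 to 851 CPM against 434 to 612. Of 6 epidermis markers 1 fell and 0 rose, at 327 to 373 CPM against 444 to 636. Over all tested genes 15.6% fell and 12.1% rose. At an unadjusted p under 0.05, 6 intestine and 5 muscle markers were lower and 0 of either list higher. By the same measure 9 neuron markers were higher and 0 lower, and 4 epidermis markers were lower and 1 higher. DESeq2 gave the same calls but for the neuron list, where 1 rose, as it did without Δ*lpp* replicate 1 or 3 or BW25113 replicate 3. On log2(TPM + 1) 0 intestine and 2 muscle markers fell and 6 neuron markers rose, and no marker of these lists was at 0 in every library of a group. Their part in the values of *alg-1*, *alg-2* and *rde-1* was not tested.

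Expressed as shares of the summed TPM of the 10 genes, which was 550 to 699 on Δ*lpp* and 388 to 559 on BW25113, several members did not overlap between the diets. *alg-3* and *alg-4* together made up 13.1 to 17.8 TPM of the sum on BW25113 and 0.21 to 0.51 TPM on Δ*lpp*. In shares, *alg-4* held 1.69% to 2.10% on BW25113 and 0.0177% to 0.0467% on Δ*lpp*, and *alg-3* 1.13% to 1.603% and 0.01945% to 0.04911%. *wago-1* held 34.4% to 36.8% on Δ*lpp* and 29.8% to 34.2% on BW25113, without overlap. *ergo-1* held 13.5% to 14.8% and 9.58% to 10.9%. *csr-1* held 9.82% to 11.2% and 13.5% to 16.7%. *prg-1* held 13.95% to 15.1% on Δ*lpp* and 15.19% to 18.09% on BW25113, apart by a narrow gap. Shares add up to the whole, so a lower share of one gene raises those of the others.

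**Figure D3:**
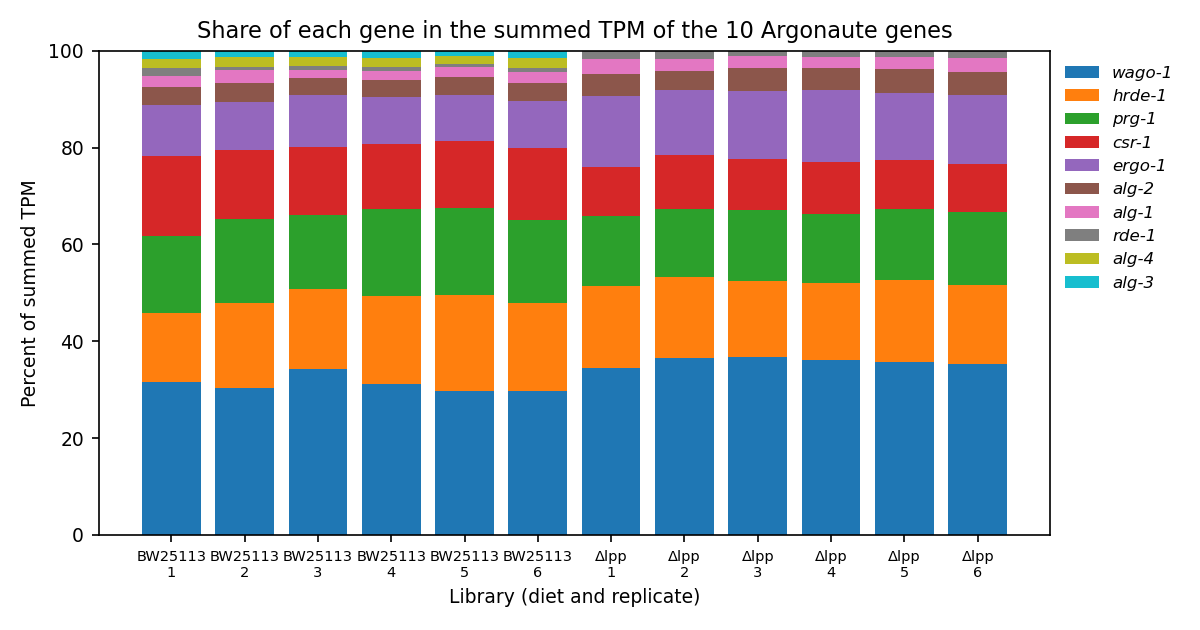
Share of each of the 10 Argonaute genes in their summed TPM, one bar per library from 0 to 100 percent, BW25113 on the left and Δlpp on the right. The thin bands of alg-4 and alg-3 at the top of the BW25113 bars are too small to see in the Δlpp bars, the ergo-1 band widens from about 10% to about 14% and the csr-1 band narrows from a median of 14.2% to 10.4%.

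Rank within a library gives the same picture. Among all tested genes ordered by TPM, *alg-3* stood between the 42.9th and 51.7th percentile in the BW25113 libraries and between 3.31 and 6.59 in the Δ*lpp* libraries, and *alg-4* between 47.8 and 57.5 and between 3.09 and 5.75. *csr-1* lay between 88.0 and 90.5 in the BW25113 libraries and between 85.1 and 87.3 in the Δ*lpp* libraries, without overlap. *ergo-1* lay between 83.1 and 88.1 and between 89.1 and 90.6. The remaining members overlapped, apart from *wago-1*, at 93.0 to 95.3 and 95.5 to 96.2. A rank depends on the other genes too, of which 41.5% separated by diet in CPM.

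Other Argonaute genes of the worm were listed by name, and 10 were found in the table, 9 of them tested. Of these 3 fell and 0 rose, against 15.6% and 12.1% of all tested genes. At an unadjusted p under 0.05, 5 were lower and 1 higher. DESeq2 made the same calls, and the median log2 fold change of the 9 was -0.28. *wago-10*, known from the spermatogenic germline, had 285 to 361 counts in the BW25113 libraries and 4 to 13 in the Δ*lpp* libraries. It was 55.1-fold lower (-5.78 ± 0.201 on the log2 scale, SE; edgeR adjusted p = 3.58e-14), between *alg-3* and *alg-4* in size. Relative to *gsp-3* and *gsp-4* it stood at 0.0645 to 0.224 on Δ*lpp* and 0.133 to 0.221 on BW25113, with overlap. On Δ*lpp* this ratio rests on only 4 to 13 counts of *wago-10*.

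*ppw-2*, also called *wago-3* and known for small RNAs inherited through sperm, had 76.4 to 98.3 CPM against 195 to 323 (-1.52 ± 0.12 on the log2 scale, SE; edgeR adjusted p = 3.02e-09). *sago-2* had 15.1 to 23.8 CPM against 44.4 to 57.8 (-1.37 ± 0.118 on the log2 scale, SE; edgeR adjusted p = 9.39e-09). Both separated the diets without overlap in CPM but fell short of the limit on both TPM scales. They stood at -0.87 and -0.70 on log2(TPM + 1) and at -0.889 and -0.775 on log2(TPM + 0.1). *sago-2* also fell short with library size alone, at -0.92. *sago-2* and *ppw-1* are similar in sequence and had counts that were not whole, so reads could have been split between them, and *ppw-1* stood at -0.63. *nrde-3*, the nuclear Argonaute of the soma, was at 0.57 (edgeR adjusted p = 0.000101), with 39.2 to 50.7 CPM against 25 to 37.3 and no overlap, and was called higher with library size alone and on both TPM scales. The log2 fold changes of *wago-4*, *alg-5*, *sago-1* and *C04F12.1* (*vsra-1* in the current annotation) were -0.28, -0.12, 0.02 and 0.09. *wago-5* had 0 to 6 counts and was not tested.

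Few genes were called in the rest of the small RNA machinery, where 27.7% of all tested genes were called. By adjusted p alone 65.2% of all tested genes passed, and at least as many at an unadjusted p. Of 18 genes for RNA-dependent RNA polymerases and the mutator complex, which amplify small RNAs, 1 rose and 0 fell, with 9 higher and 1 lower at an unadjusted p under 0.05. The gene that rose was *nyn-2*, which encodes a nuclease, at 13.6 to 29.1 CPM against 0 to 11.1 (log2 fold change 1.89, standard error 0.561), with counts that were not whole. Of 9 tested genes of Dicer and the ERI complex, which make the small RNAs of ERGO-1, ALG-3 and ALG-4, 0 were called, with 3 higher and 0 lower at an unadjusted p under 0.05 and a highest value of 0.45. The median of that list was 0.30. Of 16 genes for piRNA production 0 were called, with 4 higher and 2 lower at an unadjusted p under 0.05 and a median of 0.04. Of 10 genes for nuclear silencing and inheritance 0 were called, with 4 higher and 2 lower by the same measure. The lowest of them was *znfx-1*, a helicase gene of inherited silencing, at -0.77.

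Of 12 genes for microRNA processing and its effectors 0 were called, with 3 higher and 5 lower at an unadjusted p under 0.05, and of 7 genes for transport of double-stranded RNA 0 were called, with 1 higher and 1 lower. DESeq2 made the same calls in these 6 lists. By adjusted p alone, 7 genes of the polymerase and mutator list were higher and 1 lower, and 3 and 0 of Dicer and ERI. The same counts were 2 and 2 for piRNA production, 4 and 1 for nuclear silencing, 2 and 4 for microRNA processing and 1 and 1 for transport. Of 5 developmental timing genes under microRNA control 2 rose and 1 fell, against 12.1% and 15.6% of all tested genes. *hbl-1* was highest at 1.93 (102 to 157 CPM against 30 to 50.7; adjusted p = 2.99e-10 from edgeR) and *daf-12* was lowest at -1.05 (26.5 to 31.8 CPM against 31.9 to 75.1), both nuclear regulators of larval timing. The fall of *daf-12* was not called without BW25113 replicate 2 or 6, nor with the upper quartile, library size alone or the TPM scales, where 3 of the 5 rose. *alg-1* and *alg-2* did not differ beyond the spread in the same fit. With library size alone 4 genes of the polymerase and mutator list and 2 of the piRNA list were called higher, and on log2(TPM + 0.1) so were 5 and 2, with 3 of Dicer and ERI, 4 of nuclear silencing and 1 of microRNA processing, in step with the median of all tested genes.

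**Figure D4:**
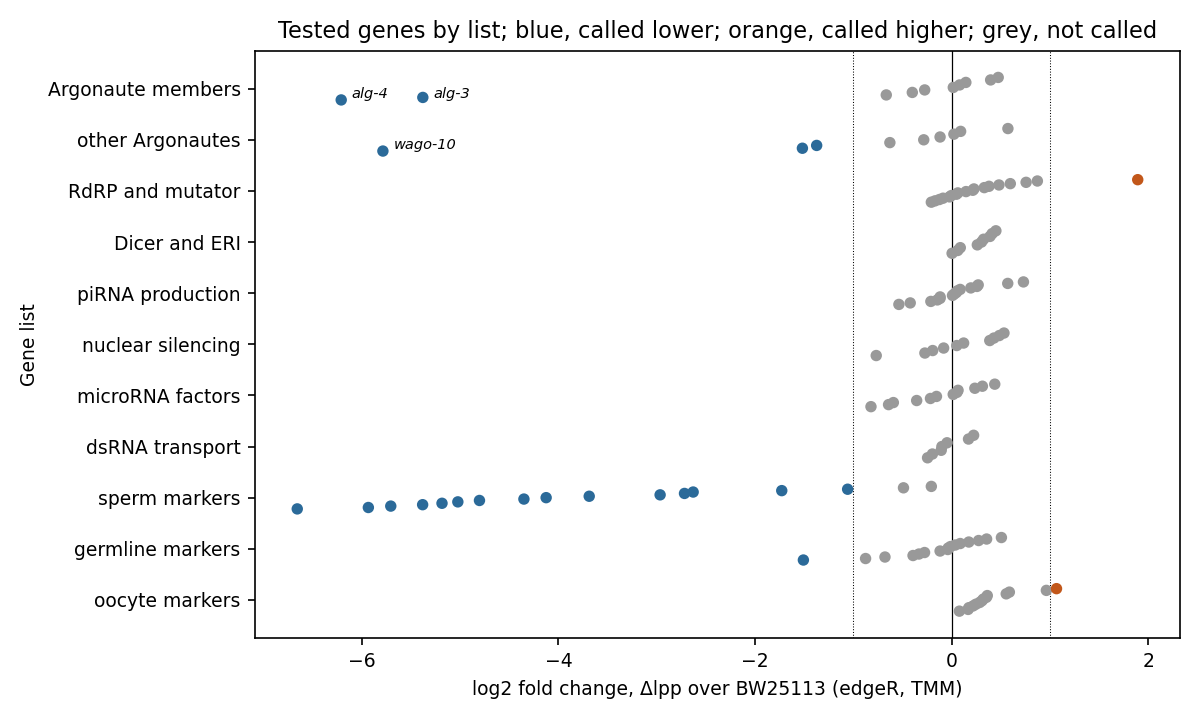
log2 fold change of Δlpp over BW25113 for each tested gene in the Argonaute members, the other Argonaute genes and 9 further lists, with dotted lines at the limits of -1 and 1. alg-3, alg-4 and wago-10 lie between -6.21 and -5.38, in the range of the sperm markers, while the other small RNA lists lie between -0.82 and 0.87 apart from nyn-2 at 1.89.

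The nearest genes of the other 8 members were close to them and were not Argonaute genes. The root mean square differences were 0.042 to 0.0809, and the nearest gene was *rpn-1* for *prg-1*, *sdha-2* for *csr-1*, *ekl-7* for *hrde-1* and *elli-1* for *wago-1*. It was *spc-1* for *alg-1*, *emr-1* for *alg-2*, *epg-6* for *ergo-1* and *sec-5* for *rde-1*. On log2(TPM + 1) both nearest genes were kept for *hrde-1*, 1 of 2 for *csr-1*, *wago-1*, *alg-1* and *rde-1*, and 0 for *prg-1*, *alg-2* and *ergo-1*. Among the members themselves the closest were *prg-1* and *hrde-1*, at 0.106.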

How the data were processed

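RNA was sequenced from N2 worms fed Δ*lpp* (6 libraries) or BW25113 (6 libraries) after ribosomal RNA removal. Reads were cleaned by the authors with Seqtk and mapped to WBcel235 with HISAT2, StringTie gave the counts and RNAnorm the TPM (versions not given in the sources used here). The deposited table holds estimated counts, of which 8.97% are not whole, and TPM. The authors' group mean TPM columns were not used. Sequences of the members were not used here. Counts were rounded, filtered with filterByExpr (minimum count 10, total 15), which left 15266 genes, scaled by TMM and tested with edgeR 4.0.16 (glmQLFit, robust, all 12 libraries, no covariate). TMM gave factors of 1.08 to 1.27 on Δ*lpp* and 0.794 to 0.988 on BW25113. R 4.3.3 also ran limma 3.58.1 and DESeq2 1.42.0, and pandas 2.3.3, numpy 2.4.6 and matplotlib 3.10.9 ran in Python 3.11.15. All 46926 IDs matched the Ensembl annotation of WBcel235, which gave the coordinates. The procedure was tested on simulated counts with 200 genes changed by a log2 fold change of 2, of which edgeR called 200, with 0 false calls. With so few genes changed, this could not test the scaling.

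No pair of libraries within a group agreed within sampling noise (chi-square per degree of freedom 4.52 to 72.4). The labels do not say whether libraries came from separate cultures, so p-values measure the spread between these libraries, which may be technical. Limits of 3 counts cover counting error only. The members and lists were chosen with earlier results of these data known. The rule for named genes took all 10 members, every tested other Argonaute gene, the called genes with the highest and lowest change of each other list, and the 2 genes nearest each member. A gene that this rule names in the sperm list is not reported here. Genes named beyond it were chosen after their values were seen. Alternatives were RLE, upper quartile and library size scaling, 2 other count filters, DESeq2, the replicate number as a block, limma-trend on TPM in log2 with a pseudocount of 1 or of 0.1, and each library left out in turn.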

Additional observations from a re-analysis of the deposited data

Results flagged for a closer look

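In 28 groups of 6 libraries, for the CPM of the 10 members, the summed CPM of the sperm, germline and oocyte markers and the summed TPM of the members, 3 had a library farther from the rest than Dixon's critical value allows. Chance gives about 1 such group in 20. All 3 were Δ*lpp* replicate 5, the highest of its group. It had 465 CPM of *hrde-1*, against 351 to 384 in the other 5 Δ*lpp* libraries. It had 278 CPM of *ergo-1*, against 220 to 239. The summed germline markers stood at 2492 CPM there, against 1925 to 2135. These 3 measures share that library and its scaling factor. Without it, *hrde-1* was at -0.34 and *ergo-1* at 0.34 on the log2 scale, the lowest value of *ergo-1* when each library was left out.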

How the results depend on the processing

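*alg-3* and *alg-4* were called lower under each setting except a minimum of 10 counts in every library, which *alg-4* failed, leaving 1 member called lower and no value for *alg-4* or *wago-10*. The number called higher was 0 under each setting but log2(TPM + 0.1), where it was 1 (*rde-1*). With each library left out in turn, 0 were called higher, 2 lower and 6 to 7 passed the adjusted p, and of the other Argonaute genes 3 were called. The direction of *prg-1* turned to 0.060 by library size alone, 0.218 on log2(TPM + 1) and 0.221 on log2(TPM + 0.1), and that of *hrde-1* to 0.193, 0.361 and 0.365 in the same order, but relative to the median over all tested genes neither turned. The value of *wago-1*, near 0, turned with the RLE factors (-0.015), DESeq2 (-0.015) and no filter (-0.0038), and ranged from -0.035 to 0.11 with a library left out, below 0 without Δ*lpp* replicate 5 or BW25113 replicates 1, 2 or 6. These scalings move all genes together by construction. The calls of the markers moved with them too: the sperm list had 14 lower by library size alone and 10 on log2(TPM + 1). The minimum of 10 counts in every library left 4 sperm markers, of which 2 were called lower. The replicate numbers did not pair the libraries (correlations of deviations -0.166 to 0.332, with 2 of the 12 libraries closest to their own number). With the replicate block 0 members were called higher, 2 lower and 6 passed the adjusted p, *alg-3* stood at -5.39 and *alg-4* at -6.21, and the number of calls over all genes was 1908 higher and 2356 lower. Of all genes called, 43.7% were higher by TMM, 68.0% by library size alone, the same share on log2(TPM + 1) and 74.1% on log2(TPM + 0.1), where 4558 were higher against 1849 by TMM. Depth limits *alg-3*, *alg-4* and *wago-10* in the Δ*lpp* group, where a library held as few as 4 counts.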

Other observations

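Zygotic genes of the early embryo were also listed. Of 9 genes 5 were tested, and 3 rose on Δ*lpp* and 0 fell, against 12.1% and 15.6% of all tested genes. At an unadjusted p under 0.05, 3 were higher and 0 lower, and DESeq2 made the same calls. The highest was *sdz-28* at 1.34, and the called gene with the lowest value was *pes-10* at 1.02. The summed level of the list was low, at 9.45 to 12.6 CPM on Δ*lpp* and 3.09 to 11.1 on BW25113, and overlapped. The number that rose was 1 on log2(TPM + 1) and without Δ*lpp* replicate 6, BW25113 replicate 5 or BW25113 replicate 6, and it was 2 with RLE factors, with the replicate block and without Δ*lpp* replicate 5, BW25113 replicate 1 or BW25113 replicate 2.

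*rde-4*, which encodes the double-stranded RNA binding partner of Dicer and RDE-1, was not tested because its counts were 0 in all but 3 libraries. It was listed with up to 408 counts on Δ*lpp* and at 0 in every BW25113 library, and the values above 0 were not whole numbers.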
